A study of Mus musculus with 9 samples.

Results

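The choroid plexus of old wild-type mice was described from 5 microarrays, 1 for each wild-type sample, chosen by their genotype label out of 9 arrays in the series. The other arrays, of apoE-/- mice, were not used. The donors were male C57BL mice aged 78 weeks, kept on normal mouse chow, and the label gives no transgene or treatment. Choroid plexus was cut by laser from fresh-frozen nervous system, and total RNA was copied into biotin-labelled RNA and hybridised. The labels leave unsaid which animals, and how many, gave each sample, so the spread between the 5 samples may be partly technical.

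The choroid plexus lies in the brain ventricles. It is a sheet of epithelium over a core of leaky capillaries, fibroblasts and macrophages. The epithelium makes cerebrospinal fluid by moving sodium, chloride, bicarbonate and water from blood to ventricle, closes the gap between its cells with tight junctions, and secretes carrier proteins such as transthyretin. It carries tufts of cilia on its ventricular face and holds many mitochondria for its pumps.

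For each of 45101 probe sets, of which 64 were controls, an array gave an intensity, here called the signal and not on a log scale, and a call of present (P), marginal (M) or absent (A). Between 44.9% and 49.1% of probe sets were called P on an array. Over the probe sets called P on all 5 arrays, the correlation of log2 signals between 2 arrays was 0.969 to 0.987, a description in which the probe sets share each array's scaling. The ratio of 3′ to 5′ signal of the Actb control, which rises as labelled RNA becomes shorter, was 3.67, 3.23, 3.12, 2.65 and 2.29 on replicates 1 to 5, and that of Gapdh was 1.33, 1.16, 1.2, 1.02 and 0.872. Replicate 1 had the highest ratio and replicate 5 the lowest for these 2 controls. For the other controls of this kind, Pcx and Tfrc, the 5′ probe sets were called A on all 5 arrays, and the ratio was highest on replicate 4 for Pcx (21.8, with 7.82 on replicate 1) and on replicate 3 for Tfrc (8.7, with 2.69 on replicate 1). Of the Y chromosome genes on the list used here, Uty, Eif2s3y and Kdm5d were present and Sry was absent. Xist, the RNA that coats the silenced X chromosome in females, was called A on all 5 arrays by 2 of its probe sets. Its other probe set, with probes shared by several transcripts, was called P on all 5 at 251.4, 214.4, 285.4, 351.5 and 293.8.

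Of the 45037 probe sets other than controls, 17630 (39.1%) were called P on all 5 arrays, 19086 (42.4%) A on all 5 and 8321 (18.5%) neither. A gene was counted as present where at least 1 probe set that names it alone was P on all 5, as absent where every such probe set was A on all 5, and otherwise as mixed. By this rule 9669 of 18193 genes (53.1%) were present, 5626 (30.9%) absent and 2898 mixed. Counts for gene lists below are to be read beside these shares. The lists were chosen with earlier results of these data known. Mean log2 signals of the P probe sets ran from 4.98 to 14.85 with a median of 9.45. The A probe sets had a median of 5.14. Ranks below are of mean log2 signal among the 17630 probe sets P on all 5, counted from 1 for the brightest. They order probe sets by brightness and not genes by transcript number, because probe sets bind with different strength. Where a gene had several probe sets P on all 5, as 3737 genes did, the brightest and the dimmest of them lay a median of 1.55 apart on the log2 scale. The brightest was used for the gene. In some cases, among them Ttr, Clu, Rps29, Pgk1, Laptm4b, Rpl38 and Hspa8, some probes of that probe set match other transcripts.

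All 5 marker genes given for the choroid plexus were called P on every array and were among the brightest probe sets. In RNA of whole tissue their signal cannot be assigned to 1 cell type. Ttr encodes transthyretin, the carrier of thyroid hormone and of retinol-binding protein. Its signal was 30270.8, 30544.8, 29253.2, 25161.0 and 21669.1 on replicates 1 to 5, with a mean log2 signal of 14.73 ± 0.08 (here and below, SD over 5 arrays after quantile normalization) and rank 4. In deposited signal replicate 5 read lowest and replicates 1 to 3 lay close together. The highest signal of any probe set was also lowest on replicate 5, at 24369.0, against 29324.8 to 36470.8 on the others. The 3 other probe sets of Ttr ranked 12, 43 and 45, so all 4 of its probe sets were among the 100 brightest. Some probes of those at ranks 4 and 12 match other transcripts. Kl encodes klotho, a membrane protein that is the co-receptor of a phosphate-regulating hormone. Its brightest probe set read 21618.6, 20982.8, 21157.8, 19016.2 and 17241.8 (rank 65), and its other one, also P on all 5, read 310.9 to 514.9 (rank 12682). Replicate 5 was lowest on the bright probe set, while on the dim one replicate 2 stood above the rest. Folr1, the folate receptor that carries folate into the cerebrospinal fluid, read 19266.4, 18436.9, 20688.6, 18326.5 and 17953.5 (rank 80). Apoe, the lipid carrier of the brain, read 20782.0, 18252.0, 23953.1, 18746.0 and 18488.0 (rank 64). Both were highest on replicate 3 and lay within a narrow band on the other arrays. Calml4, a calmodulin-like protein, read 17777.6, 15157.4, 15476.9, 15520.2 and 13289.0 (rank 199), highest on replicate 1.

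**Figure D1:**
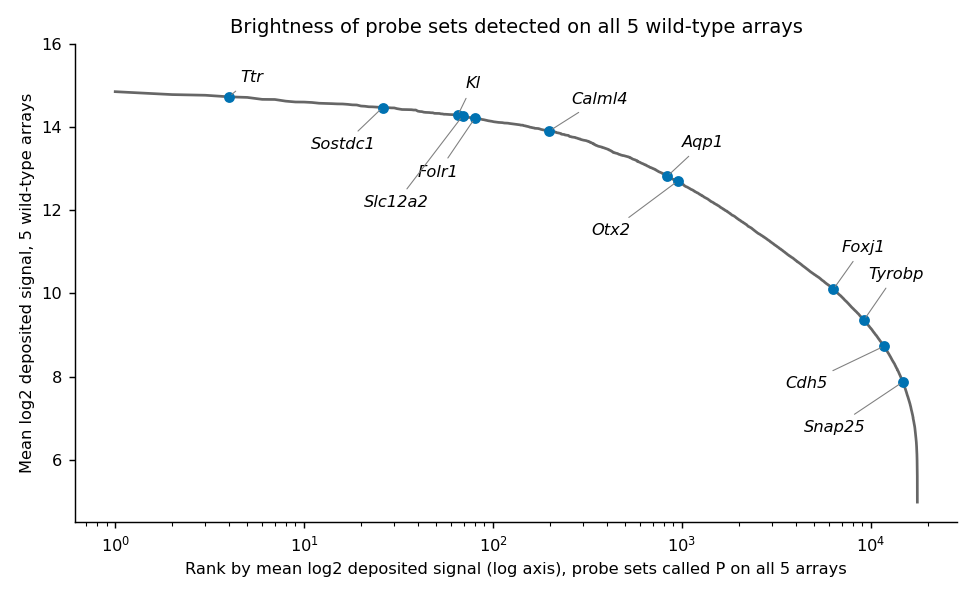
Mean log2 deposited signal over the 5 wild-type arrays (vertical axis) against rank on a log axis, for the 17630 probe sets called P on all 5 arrays. Points mark the brightest probe set of named genes: Ttr has rank 4, Calml4 rank 199, Aqp1 rank 836, Foxj1 rank 6330 and Snap25 rank 14753.

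The 40 brightest genes mixed genes of protein synthesis and mitochondria, which most cells express strongly, with genes of the epithelium's own secretion and transport. The brightest probe set of all has no gene listed for it. Eef1a1, the elongation factor that brings transfer RNA to the ribosome, ranked 2 at 30329.0, 28672.8, 31662.5, 26746.4 and 24184.8. Of the 40 genes, 8 are on the oxidative phosphorylation list used here, among them Cox7a2 (rank 7), Cox6c (rank 18) and Uqcrb (rank 19), subunits of respiratory complexes, and the mitochondrial gene ND5 ranked 15. A further 4, Rps29, Rpl38, Rpl41 and Rpl13a, are on the ribosomal protein list. The epithelium list held 7 of the 40, namely Ttr, Sostdc1, Ecrg4, Kcnj13, Igfbp2, Clic6 and Kl. The first and the last of the 40 were 1.43-fold apart in mean signal. None (0) of the 39 pairs of neighbours kept their order on all 5 arrays, while 16 of 30 pairs 10 places apart did, so single places in this order lie within the spread of the arrays. In deposited signal 37 of the 40 genes were lowest on replicate 5, 21 were highest on replicate 1 and 15 on replicate 3. Over all present genes these shares were 20.1%, 23% and 27.3%. The 100 brightest probe sets held 5.7% to 7.2% of an array's summed signal.

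Secreted and carrier proteins were present for 26 of 29 listed genes. A probe set in the brightest 10% had a mean log2 signal of at least 11.95, and 1094 of the 9669 present genes (11.3%) had one. On the secreted list 14 genes had one. Clu, the secreted chaperone clusterin, read 32033.1, 27184.5, 31160.8, 27328.9 and 22721.7 (rank 3), and its 3 other probe sets ranked 21, 34 and 120. Some probes of those at ranks 3, 21 and 34 match other transcripts. Like Ttr, Clu was lowest on replicate 5 in deposited signal. Cst3, the protease inhibitor cystatin C, had rank 47, Igfbp2, which binds insulin-like growth factors, rank 52, and Ptgds, the prostaglandin D synthase that also carries small lipids, rank 79. Igf2, the growth factor itself, ranked 174. Sostdc1, a secreted antagonist of BMP and Wnt signals, read 26220.0, 22026.6, 22686.3, 23196.6 and 19883.8 (rank 26). Psap, the precursor of the lysosomal saposins, was the least even of the 40 brightest genes. It read 28556.0, 16308.6, 25208.5, 15697.9 and 18458.8 (SD 0.29). Replicates 1 and 3 lay above the others, and its second probe set also read higher on these arrays, at 12414.6 and 10375.2, than on replicates 2 and 4, at 6748.7 and 7053.2, with replicate 5 at 10280.5. Serpina3n and Lcn2, both acute-phase proteins, were called A on all 5 arrays, and Apoc1 was mixed.

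**Figure D2:**
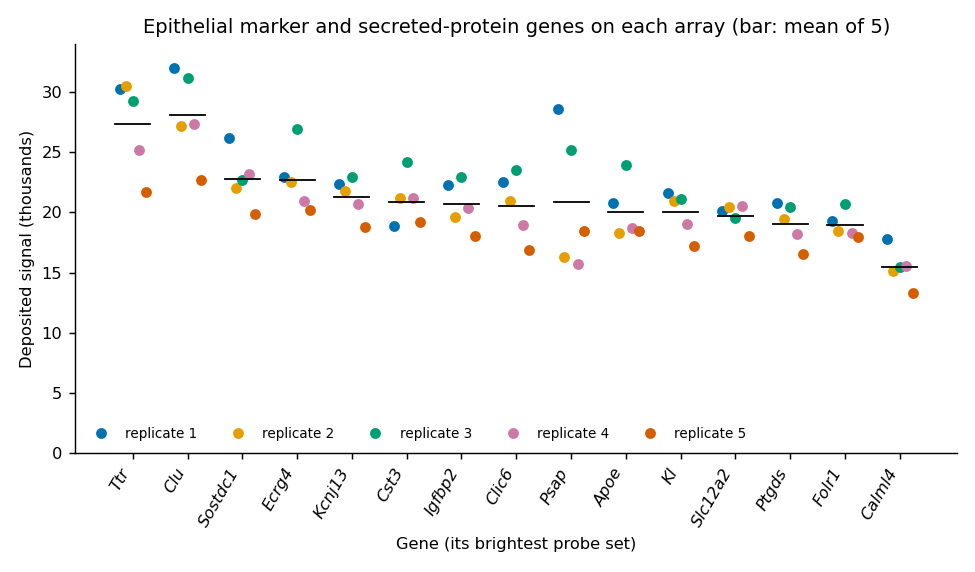
Deposited signal divided by 1000 (vertical axis, from 0) for 15 genes of the epithelium and of secreted proteins, each by its brightest probe set, with a point for each of the 5 wild-type replicates and a bar at their mean. Psap is spread widest, from 15697.9 to 28556.0, and replicate 5 is the lowest point for most genes.

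The epithelium list as a whole was detected almost without gaps: 40 of 41 genes were present, with a median of 13.34 on the log2 scale, and 35 were in the brightest 10%. The remaining gene, Lmx1a, a transcription factor of the roof plate from which the choroid plexus develops, was called P on replicate 5 alone at 241.4. Because the epithelium list was chosen with earlier results of these data known, its detection and brightness are no independent result. Ecrg4, a secreted peptide precursor, had rank 29, and F5, coagulation factor V, had rank 442. Htr2c, the serotonin receptor that marks this epithelium, read 14957.2, 13635.2, 13469.6, 13690.2 and 12363.4 (rank 280). Trpm3, a steroid-sensitive cation channel, had all 6 of its probe sets P on all 5 arrays, from rank 316 down to rank 11154. Rdh5, a retinol dehydrogenase, Steap1, a metalloreductase, and the enzyme Sulf1, which trims heparan sulphate, ranked 328, 360 and 490. Krt18 and Krt8, the keratin pair of simple epithelia, ranked 664 and 2079. Wfikkn2 (SD 0.60), Cltrn (SD 0.33) and Col9a3, a collagen chain (SD 0.23), had the largest SDs on the list, and the 37 other present genes stayed at or under 0.21.

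Ion and water transport genes were present for 22 of 29, with 16 in the brightest 10%. On the ventricular face of the epithelium, Kcnj13, a potassium channel, read 22393.1, 21787.9, 22963.3, 20707.8 and 18753.3 (rank 41). Slc12a2, the sodium-potassium-chloride cotransporter, read 20101.1, 20469.4, 19498.5, 20516.1 and 18039.4 (rank 69). Both were lowest on replicate 5 in deposited signal and differed little between the other arrays. By rank within each array, though, both stood nearest the top on replicate 5. The rank there was 27 for Kcnj13 (43 to 63 on the others) and 38 for Slc12a2 (45 to 109). Atp1b1, a subunit of the sodium pump, ranked 108, and Kcne2, a subunit of potassium channels, ranked 170. Atp2b3, a calcium pump of the plasma membrane, ranked 175. Of the carbonic anhydrases, which supply bicarbonate, Car2 read 14080.4 to 18124.9 (rank 185), Car12 ranked 450, Car14 ranked 1135 and Car4 ranked 13058. The bicarbonate transporters Slc4a10, Slc4a2 and Slc4a5 ranked 198, 586 and 755. Aqp1, the water channel of the ventricular membrane, read 8575.6, 6854.5, 8255.2, 5949.9 and 6781.0 (rank 836), higher on replicates 1 and 3 than on the rest. Aqp4, a water channel of astrocytes and ependyma, ranked 14584 (SD 0.56). Epithelial sodium channel subunits Scnn1b and Scnn1g, with Kcnq1, Kcna3 and Clcn2, were called A on all 5, and Scnn1a was mixed.

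Solute carriers and efflux pumps of the blood to cerebrospinal fluid barrier were present for 24 of 26 genes, 9 of them in the brightest 10%. Slc29a4, which takes up monoamines, ranked 207, Slco1c1, the thyroid hormone transporter, 327, Slc2a12, a sugar transporter, 462, and Slc23a2, the vitamin C transporter, 542. The zinc transporter Slc39a12 ranked 677 and the copper transporter Slc31a1 ranked 658. Drug efflux pumps had lower ranks: Abcc1 ranked 3024, Abcc4 3165, Abcg2 4812 and Abcb1a 15136, and Abcb1b was absent. Junction and polarity genes were present for 19 of 21. Ctnnb1, the catenin of adherens junctions, ranked 202 and Ezr, which ties membrane to actin, 440. The claudin of pore-forming tight junctions, Cldn2, read 7852.1, 8404.2, 9153.4, 8648.1 and 7821.3 (rank 683), and Cldn1, a sealing claudin, ranked 1556. Cldn5, the claudin of brain capillaries, ranked 13754. Ocln and Tjp1, other parts of tight junctions, ranked 2186 and 3797.

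Motile cilia genes were present for 16 of 28 (57.1%), mixed for 4 and absent for 8. This is near the 53.1% of all genes that were present. Cfap126 (rank 1496) and Dynlrb2 (rank 1519), proteins of the axoneme and of its dynein motors, led. Foxj1, the master regulator of motile ciliogenesis, read 1923.5, 1369.4, 802.2, 825.7 and 906.7 (rank 6330, SD 0.56). Replicates 1 and 2 stood above the other arrays. The axonemal genes Spag6, Spag17, Ccdc40 and Tekt4 were called A on all 5 arrays. Of 23 transcription factors of choroid plexus development, 13 (56.5%) were present, also near the share over all genes. Otx2, which the plexus needs to form, read 5817.6, 6818.4, 7543.8, 6523.2 and 6601.6 (rank 948). Msx1, a homeobox gene of the dorsal midline, ranked 1035 and Zic1, a zinc finger gene of the dorsal brain, 1762. Lmx1b was absent and 9 of the factors were mixed, among them Pax6 and the hindbrain genes Hoxa2, Hoxa3 and Hoxb3. Over the whole Hox family of symbols, 0 of 36 genes were present, 8 were mixed and 28 absent.

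Receptors for hormones and growth factors were present for 21 of 31 genes. After Kl and Htr2c came Npr3, the clearance receptor of natriuretic peptides (rank 1083), Vldlr, a lipoprotein receptor (rank 1136), and Igf1r, the receptor of insulin-like growth factors (rank 1259). Lepr, the leptin receptor, ranked 2426 and Ghr, the growth hormone receptor, 2791. The receptors Tshr, Oxtr, Pgr, Esr1, Klb and Avpr1b were absent. Of 13 serotonin receptor genes, whose symbols start with Htr, 1 was present, which was Htr2c, while 5 were mixed and 7 absent. Genes whose symbols start with Kcn, mostly potassium channel subunits but also the noncoding RNA Kcnq1ot1, which was present, were present for 15 of 84 (17.9%), although Kcnj13 and Kcne2 were among the brightest genes.

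Housekeeping genes of energy and protein synthesis were detected nearly in full. Oxidative phosphorylation genes were present for 51 of 54, 48 of them in the brightest 10%, with a median of 13.69 on the log2 scale. The 3 others included Cox6a2 and Cox4i2, forms of complex IV subunits typical of muscle and lung, of which the first was absent and the second mixed, and Ndufb4, which was mixed. Of the 44 ribosomal protein genes listed, 29 had a probe set that names them alone, and all 29 were present. By symbol, 40 of 45 genes starting with Rpl or Rps were present, 1 was mixed and 4 were absent. Heat shock genes were present for 11 of 12, led by Hspa5 (rank 31) and Hspa8 (rank 37), chaperones of the endoplasmic reticulum and the cytosol. Antioxidant genes were present for 20 of 23, with Gpx4 (rank 89), which repairs lipid peroxides, and Sod1 (rank 118) brightest, Gpx3 absent and Hmox1 mixed. Iron and copper genes were present for 15 of 20. Among them the ferritin chain Fth1 had rank 75, while Slc40a1, the iron exporter, was mixed, with 1 probe set A on all 5 arrays and the other P on 4. Of 19 genes of amyloid precursor processing 17 were present, with Itm2b (rank 87) and App (rank 173) brightest. Circadian clock genes were present for 14 of 18, and immediate early genes, which respond to stimulation and to handling of tissue, for 13 of 20. Fos, Fosb, Junb, Atf3 and Arc were absent.

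**Figure D3:**
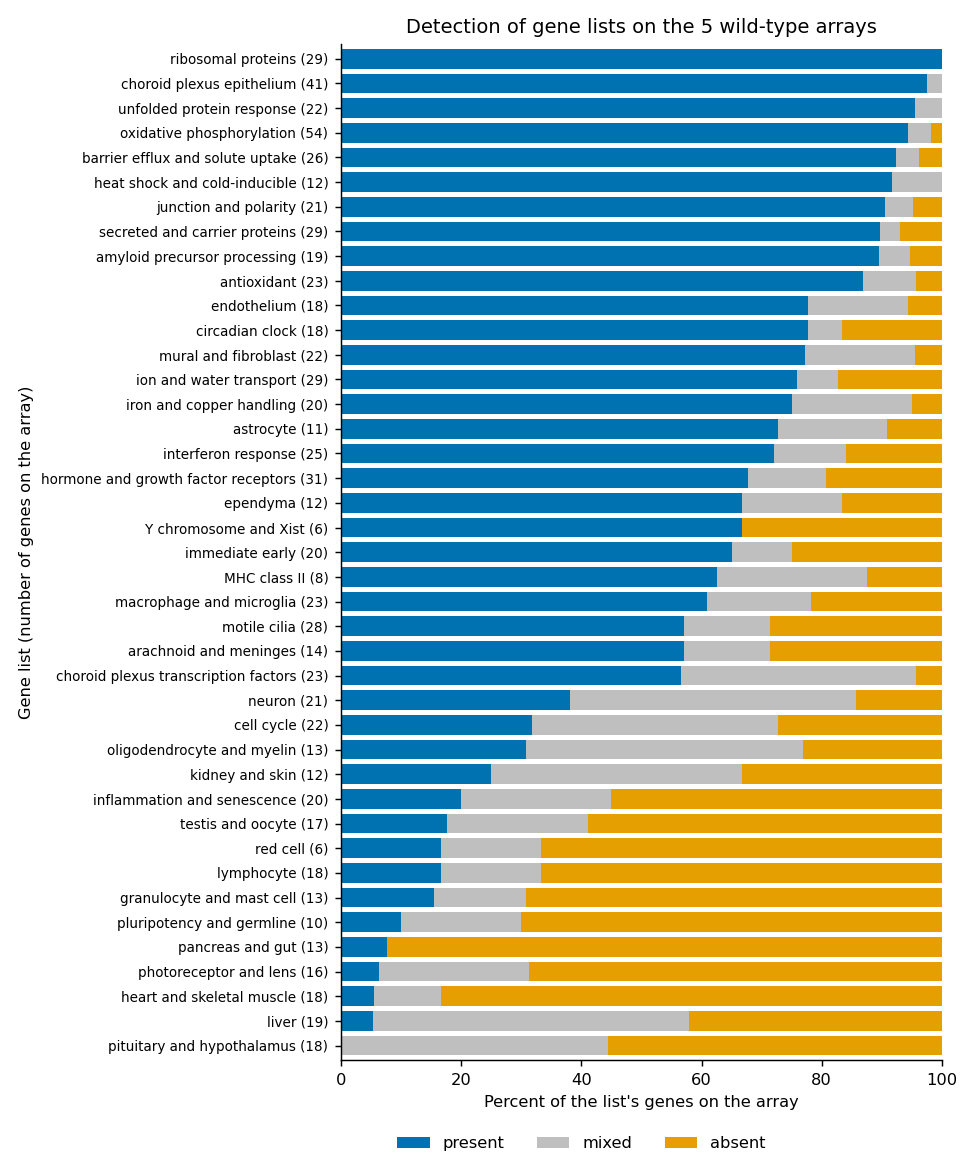
Share of each gene list (horizontal axis, percent of its genes on the array, with their number in parentheses) that was present, mixed or absent on the 5 wild-type arrays. All 29 genes of the ribosomal protein list that are on the array are present, 40 of 41 epithelium genes are, and no gene of the pituitary and hypothalamus list is.

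Markers of the other cells of the choroid plexus had median log2 signals, over their present genes, of 9.74 for endothelium, 10.59 for mural cells and fibroblasts and 9.30 for macrophages and microglia, beside 13.34 for the epithelium list. The choice of lists with earlier results known limits this comparison. In RNA of whole tissue, fewer cells of a type and less RNA per cell cannot be told apart. Endothelial genes were present for 14 of 18. Kdr, the receptor of vascular endothelial growth factor, ranked 4064, Plvap, which bridges the pores of leaky capillaries, 5017, and Cdh5, the endothelial cadherin, 11737. Mfsd2a, a lipid transporter of sealed brain capillaries, was absent, and Pecam1 was mixed, its probe set being M on replicate 5 and A on the others. Genes of mural cells and fibroblasts were present for 17 of 22, led by Mgp, an inhibitor of calcification (rank 675), and Rgs5, a pericyte gene (rank 770), with the matrix proteoglycan Dcn at rank 1923. Macrophage and microglia genes were present for 14 of 23 (60.9%), beside 53.1% of all genes. Csf1r, the receptor that keeps macrophages alive, ranked 2209, and Tyrobp, an adaptor of their surface receptors, 9187. The microglial genes Tmem119, Cx3cr1 and Trem2 were absent while P2ry12 was present at rank 17183. MHC class II genes were present for 5 of 8 (62.5%), with H2-Aa at rank 1098. Lymphocyte genes were present for 3 of 18 (Jchain, Ms4a1 and Cd8a), granulocyte and mast cell genes for 2 of 13 (Kit and S100a8) and red cell genes for 1 of 6 (Bpgm, an enzyme of other cells too). The T cell genes Cd3e, Cd3g and Cd3d were absent.

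Genes of neighbouring brain tissue had median log2 signals, over their present genes, of 7.79 for neurons, 8.94 for astrocytes, 9.18 for myelin and oligodendrocytes, 10.48 for ependyma and 8.61 for arachnoid and meninges. Neuron genes were present for 8 of 21, none of them in the brightest 10%. Syn1, Slc17a6 and Tubb3 were absent. Astrocyte genes were present for 8 of 11, although Aldh1l1 and Aldoc, the brightest (ranks 3727 and 3852), are enzymes that other cells may also express. Gfap, the filament of reactive astrocytes, was mixed and was P on replicate 1 alone by its brightest probe set. Myelin and oligodendrocyte genes were present for 4 of 13, and Mag, Mog and Olig2 were absent. Ependyma genes were present for 8 of 12, 4 of them (Cfap126, Dynlrb2, Foxj1 and Sox2) shared with the cilia or transcription factor lists. Genes of arachnoid and meninges were present for 8 of 14 (57.1%), near the 53.1% of all genes. They were led by Ptgds (rank 79) and Slc13a4 (rank 781), both shared with lists of the plexus itself, while Aldh1a2, Slc6a13, Crabp2 and Dpp4 were absent.

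Few genes of distant tissues were present, and the rest were absent or mixed. For liver 1 of 19 was present and 8 absent, for pancreas and gut 1 of 13 and 12, and for heart and skeletal muscle 1 of 18 and 15. For testis and oocyte 3 of 17 were present and 10 absent, and for photoreceptor and lens 1 of 16 and 11. For pituitary and hypothalamus 0 of 18 were present and 10 absent, for kidney and skin 3 of 12 and 4, and for pluripotency and germline 1 of 10 and 7. The liver list, with 10 mixed genes, and the kidney and skin list, with 5, had more mixed than absent genes. Albumin (Alb), the main liver secretion, was mixed, and Apoa1, Apob and Fgb were absent. The exceptions were bright in 3 cases. Abca4, a retinoid transporter best known from photoreceptors, read 6513.5, 5820.0, 7901.6, 5819.9 and 5921.5 (rank 1007). Myh7, a myosin of heart and slow muscle, read 902.9, 1264.3, 1540.9, 1687.7 and 1300.6 (rank 5404). Ins2, 1 of the insulin genes of the mouse, read 975.4, 839.6, 1497.4, 1137.1 and 1633.5 (rank 5955) on a probe set of which some probes match other transcripts. Abca4 was higher on replicate 3 than on the rest, while Myh7 and Ins2 differed by up to 1.87-fold and 1.95-fold between arrays. Large families of sensory and structural genes were mostly absent, with 3 of 39 olfactory receptors (Olfr), 2 of 32 vomeronasal receptors (Vmn) and 6 of 48 keratins (Krt) present.

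Cell cycle genes were present for 7 of 22. Pcna and Ccnd2 were the brightest, and Mki67, Aurka, Birc5, Ccnb2, Tyms and Cdkn2a were absent. Genes of inflammation and senescence were present for 4 of 20. Vcam1, an adhesion molecule for leukocytes, ranked 511. The adhesion molecule Icam1, the membrane glycoprotein Gpnmb and the cytokine Il1b ranked 11831, 12537 and 14807, whereas Il6, Tnf, Ccl2, Ccl5, Cxcl10, Ifng and Mmp9 were absent. An A call was not always dim: 39 probe sets A on all 5 arrays were brighter than the median of the P probe sets, and of the 35 that name 1 gene, 18 belonged to a gene with another probe set P on all 5. The brightest of the genes called absent was Sema3f, a guidance molecule, at 2967.1, 1420.0, 2869.7, 2053.3 and 1632.1 on a probe set of which some probes match other transcripts, and at 114.6 to 363.6 on its 2 others. It was followed by Nwd1, Ippk, Ints14, Zap70, Gnpda1, Zfp212, Cplx2, Il17rc, Fbxw9, Abl1 and Rce1, with mean log2 signals of 10.10 down to 9.48.

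Most detected probe sets varied little between the arrays. Over the 17630 probe sets P on all 5, the median SD between arrays was 0.20 on the log2 scale, and the SD lay between 0.08 and 0.45 from the 5th to the 95th percentile. It fell with brightness, from a median of 0.32 in the dimmest 10% to 0.13 in the brightest. Among probe sets A on all 5 the median was 0.75. An SD over 0.5 was found for 554 probe sets (3.14%) and over 1 for 15. In those 554, replicate 1 lay farthest from the median of the arrays in 221 (39.9%) and replicate 3 in 159 (28.7%), against 25.9% and 31.0% over all probe sets P on all 5. Among the evenest bright probe sets was that of Ufd1, a partner in the removal of misfolded proteins (882.3, 890.8, 903.3, 910.8 and 932.7, SD 0.01). Others were of Apex1, a DNA repair enzyme (SD 0.02), Dynll1, a dynein light chain (SD 0.02), Lrpprc, which stabilises mitochondrial messenger RNA (SD 0.02), and Lipa, the lysosomal acid lipase (SD 0.03). For Apex1 this was its dimmest probe set, and its brightest had an SD of 0.26. Another probe set of Lipa had an SD of 0.34.

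**Figure D4:**
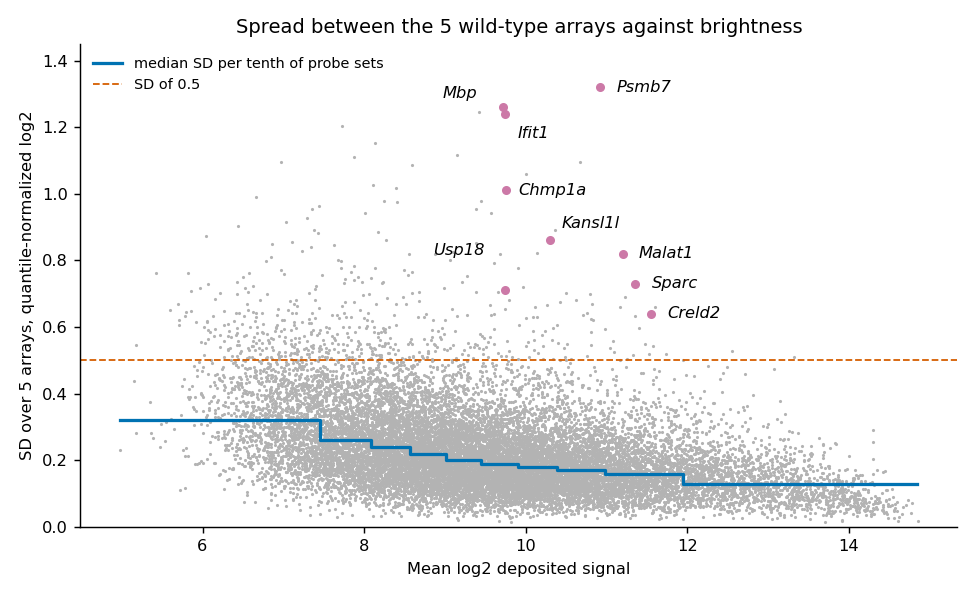
SD of the quantile-normalized log2 signal over the 5 wild-type arrays (vertical axis) against mean log2 deposited signal (horizontal axis) for each probe set called P on all 5. The blue steps are the median SD in 10 bins of equal size, falling from 0.32 to 0.13, the dashed line marks 0.5, and named points are genes of large SD such as Psmb7 (1.32), Mbp (1.26) and Ifit1 (1.24).

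The widest differences between arrays, among probe sets brighter than the median, were of several kinds. The probe set of Psmb7, a proteasome subunit, read 2123.9, 2598.9, 410.4, 2623.3 and 4592.0 (SD 1.32), low on replicate 3 alone. For Mbp, the basic protein of myelin, the brightest probe set read 6151.2, 1682.0, 1066.2, 1088.5 and 976.6 (SD 1.1). All 5 probe sets of Mbp that were P on all 5 arrays were highest on replicate 1 and had SDs of 0.94 to 1.26. Its other probe sets, not P on all 5, were divided. One of mean log2 signal 9.95 was lowest and called A on replicate 1, at 872.9 against 927.1 to 1117.2 (SD 0.16). Another was highest on replicate 4 (228.7), and another on replicate 1 (527.8, with 148.7 to 332.7 on the others). Malat1, a nuclear RNA, read 4966.2, 2069.8, 2831.4, 2379.0 and 1057.0 on its brightest probe set (SD 0.82), highest on replicate 1 and lowest on replicate 5, while its other 4 probe sets P on all 5 had SDs of 0.14 to 0.33. Sparc, a matrix protein, was lowest on replicate 3 on both of its probe sets P on all 5, at 2447.6 against 3447.3 to 4047.2 and at 1101.2 against 2662.2 to 3935.8. Ptn, a growth factor, read 679.2 and 1054.2 on replicates 1 and 3 and 1789.1 to 2023.2 on the rest. Its other probe set P on all 5 did not share this, at 155.5 and 253.4 on replicates 1 and 3 and 151.7 to 188.6 on the rest. Another, called A on all 5, was lowest on replicate 1 at 131.2. Leaving out 1 array brought the SD from 1.32 to 0.49 for Psmb7 (without replicate 3), from 1.26 to 0.36 for the most variable probe set of Mbp (without replicate 1) and from 0.73 to 0.27 for that of Sparc (without replicate 3). For Ptn it went from 0.68 to 0.42 without replicate 1. The array left out was each time the one farthest from the median, so these lower SDs are no finding. Dct, an enzyme of melanin synthesis, was highest on replicate 4 at 1754.0 against 507.6 to 1125.0.

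Probe sets of 1 gene could differ widely in spread. Of 430 probe sets with 1 gene symbol and an SD over 0.5, 258 belonged to genes with another probe set P on all 5. Their median SD was 0.58 and that of the brightest other probe set was 0.21, and in 224 of them the widely spread probe set was the dimmer one. They were picked for a large SD, and SD falls with brightness, so a lower SD on the other probe set is no finding. Another probe set of the gene also exceeded 0.5 in 33 of the 258 (12.8%), and in 4.81% of the 9293 probe sets with a smaller SD that have such a partner. Rab2a, a GTPase of the secretory pathway, is an example: the widely spread probe set read 482.7, 1267.7, 750.3, 1343.8 and 1628.3 (SD 0.72), and the brightest read 6978.8, 8631.5, 8550.7, 7782.7 and 8356.8 (SD 0.15). Tax1bp1, an autophagy receptor, had SDs of 0.78 and 0.21 on such a pair, and Scp2, a sterol carrier, 0.68 and 0.20. Replicates 1 and 3 were the lowest pair of arrays in 118 (21.3%) of the 554 probe sets with an SD over 0.5, and in 16.2% of the others.

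Lists of marker genes moved between the arrays to different degrees. For each list, the mean over its present members of the log2 deviation from each member's own mean was taken on every array. The epithelium list ranged over 0.10 between arrays and the ion and water transport list over 0.08. They had 40 and 22 present members, with median log2 signals of 13.34 and 13.14. The 4 lists described next had fewer and dimmer members, and the SD falls with brightness, so the ranges are not like for like. The largest range among lists with at least 4 present members was that of myelin and oligodendrocyte genes, at 0.77, 0.17, -0.40, -0.33 and -0.22 on replicates 1 to 5, and 3 of its 4 present genes were highest on replicate 1, as were 22.3% of all present genes. Their summed signal was 8821 on replicate 1 and 2466 to 3498 on the others. Mbp, already named for its large SD, gave 6151.2 of the 8821, and 976.6 to 1682.0 on the others. Cnp and Ermn were also highest on replicate 1, while Cldn11 was highest on replicate 5. Neuron genes stood at 0.52, -0.01, -0.14, -0.04 and -0.32 (summed signal 3633 against 2721 to 2771), and 6 of 8 were highest on replicate 1. Astrocyte genes stood at 0.30, 0.17, -0.29, -0.10 and -0.08 (summed signal 7132 against 6131 to 6447), and 4 of 8 were highest on replicate 1. Macrophage and microglia genes stood at 0.31, 0.01, -0.14, 0.03 and -0.22 (summed signal 17896 against 11846 to 13556), and 10 of 14 were highest on replicate 1. Replicate 1 was the highest array for all 4 of these lists, but not for them alone. It was also highest for the kidney and skin (0.38), lymphocyte (0.35), MHC class II (0.19), ependyma (0.16), motile cilia (0.14) and barrier solute carrier and efflux (0.08) lists. Of the defining genes called absent, Mag read highest on replicate 1 (226.0, with 23.9 on the lowest array), as did Syn1 (279.1, with 197.0 to 239.6 on the others), while Mog, Olig2 and Tubb3 were not highest on replicate 1. Of 32 probe sets of the myelin and oligodendrocyte list, 3 were called P on replicate 1 alone, 1 on replicate 3 alone and 1 on replicate 5 alone. Over all 45037 probe sets other than controls, 2495 were P on exactly 1 array, and the share for replicate 1 alone was not counted.

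Interferon response genes formed the opposite case, being lowest on replicate 1. Interferons are antiviral cytokines that switch on a shared set of genes through STAT and IRF factors. Of 25 listed genes 18 were present, 3 mixed and 4 absent (Oas1a, Ifit2, Oas3 and Mx2). Ifi27 was the brightest (rank 92) and Bst2, which tethers budding virus, ranked 2332. The list mean was -0.57, 0.04, 0.12, 0.36 and 0.05 on replicates 1 to 5, with 13 of 18 genes lowest on replicate 1 and 11 highest on replicate 4. Of all present genes 22.9% were lowest on replicate 1 and 14% highest on replicate 4. Ifit1, which binds viral RNA, read 206.3, 1128.3, 1190.2, 1944.3 and 875.5 (SD 1.24). Usp18, which removes the ubiquitin-like protein ISG15, read 399.4, 933.3, 1067.5, 1465.0 and 815.4 (SD 0.71). Without replicate 1, the array farthest from the median for both, these SDs were 0.50 and 0.38, so the lower values are no finding. Ifit1 and Usp18 were both lowest on replicate 1 and highest on replicate 4. After quantile normalization the mean log2 signal of the other arrays exceeded replicate 1 by 6.05-fold for Ifit1, 2.96-fold for Ifit3, 2.66-fold for Usp18, 2.48-fold for Rtp4 and 2.43-fold for Xaf1, but Oas2 was highest on replicate 1. Replicate 1 also had the highest myelin, neuron and macrophage list means and the highest 3′ to 5′ ratio of Actb, and their part in this difference was not tested.

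Promoter stretches of 4 of these genes are shown because they were among those that hold the letters of the element that interferon-activated factors are known to bind. The sequences are from RefSeq, build GRCm38.p6, written 5′ to 3′ on the strand of the gene and lying upstream of its start. Capitals mark a match to GAAA, any 2 bases and GAAA, or to its reverse complement.
Ifit1 (chr19:34640789-34640828, + strand): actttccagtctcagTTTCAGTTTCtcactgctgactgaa
Ifit3 (chr19:34583392-34583431, + strand): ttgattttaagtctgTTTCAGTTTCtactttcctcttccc
Igtp (chr11:58199507-58199546, + strand): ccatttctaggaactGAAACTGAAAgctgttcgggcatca
Irgm1 (chr11:48871421-48871459, - strand): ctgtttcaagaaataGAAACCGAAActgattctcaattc
The motif was chosen after the spread between arrays had been seen and was searched on both strands of the 250 bases upstream. It was found in 9 of the 13 present interferon genes that have a promoter in the table, and in 3.04% of all 27025 promoters. Only 72.2% of the 18 present genes have a promoter there, under the 80% needed for a statement on the list, so these counts hold for the 13 genes alone. A match shows letters only, not binding.

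Genes of the unfolded protein response, the program by which cells enlarge the folding capacity of the endoplasmic reticulum, were present for 21 of 22, and 12 were in the brightest 10%. The remaining gene, Edem1, was mixed. The chaperone Hspa5 read 21784.5, 26710.0, 25382.4, 21761.6 and 17176.5 (rank 31). It was highest on replicate 2 and lowest on replicate 5 in deposited signal. The lectin chaperones Canx and Calr ranked 214 and 262, the chaperone Hsp90b1 219, and Xbp1, a transcription factor of the response, 318. The list mean was -0.32, 0.13, 0.14, 0.05 and -0.01, and 15 of the 21 genes were lowest on replicate 1, beside the 22.9% of all present genes. The largest differences were in Creld2, a factor secreted on stress, which read 1542.2, 4959.0, 4254.6, 2812.5 and 2688.0 (SD 0.64), in Herpud1, a membrane protein of the degradation complex (SD 0.55), and in Manf, a secreted protective factor (SD 0.47). After quantile normalization the other arrays exceeded replicate 1 by 2.25-fold for Creld2, 2.20-fold for Herpud1 and 1.92-fold for Manf. Atf4 was highest on replicate 1. The part of the list means and 3′ to 5′ ratios given above for replicate 1 in this difference was not tested.

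**Figure D5:**
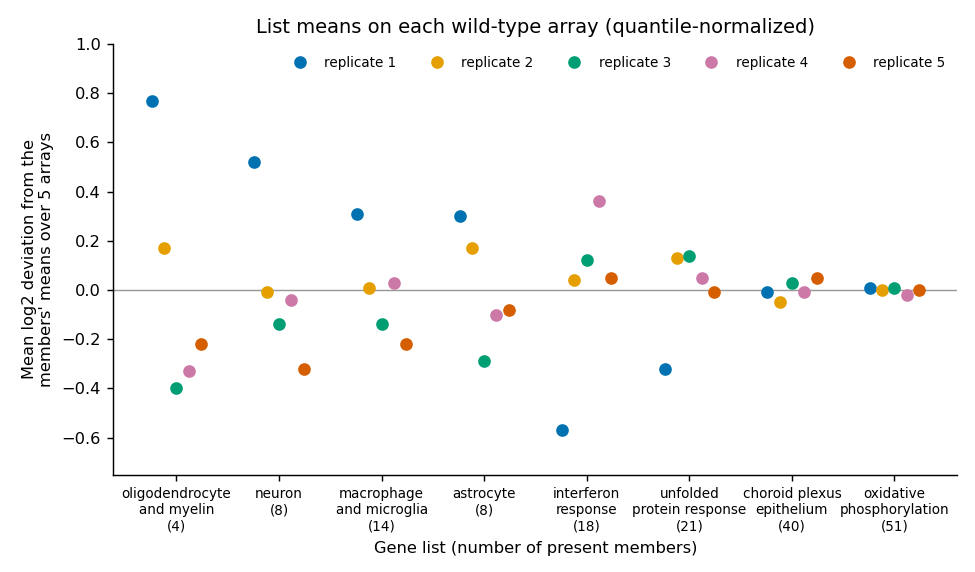
Mean log2 deviation of the present members of 8 gene lists from their own means over the 5 arrays (vertical axis, quantile-normalized), with a point for each wild-type replicate and the number of members in parentheses. Replicate 1 is the highest point for the myelin, neuron, macrophage and astrocyte lists, as it is for some lists not plotted. It is the lowest for the interferon (-0.57) and unfolded protein response (-0.32) lists, while oxidative phosphorylation genes range over 0.03.

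Promoters of this second list are shown for a motif known to be bound during stress of the endoplasmic reticulum, CCAAT, any 9 bases and CCACG, where NF-Y and ATF6 sit side by side. Capitals mark the match or its reverse complement in RefSeq promoters of build GRCm38.p6, written on the strand of the gene.
Hspa5 (chr2:34772010-34772058, + strand): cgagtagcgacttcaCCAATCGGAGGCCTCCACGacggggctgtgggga
Calr (chr8:84847060-84847108, - strand): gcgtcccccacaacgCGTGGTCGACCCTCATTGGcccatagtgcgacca
Creld2 (chr15:88819505-88819553, + strand): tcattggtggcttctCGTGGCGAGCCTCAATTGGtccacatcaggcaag
Syvn1 (chr19:6046517-6046565, + strand): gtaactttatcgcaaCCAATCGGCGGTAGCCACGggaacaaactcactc
Of the 21 present genes 18 have a promoter in the table. The motif, also chosen after the spread had been seen, was found on either strand within 250 bases upstream in 8 of the 18, which were Hspa5, Canx, Hsp90b1, Calr, Dnajc3, Pdia6, Creld2 and Syvn1. It was found in 33 of all 27025 promoters (0.122%). The shorter CCAAT alone, which the longer motif contains, was found within the 300 bases in 17 of the 18 and in 37.9% of all promoters.

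The CG content of promoters differed between groups of present genes. In the 300 bases around the start, 250 before and 50 after, the count of CG over that expected from the C and G content exceeded 0.6 in 74.7% of the 7920 present genes with a promoter and in 36.4% of all promoters. It did so in 77.7% of the brightest 10% of present genes, in 78.5% of the tenth with the smallest SD and in 65.9% of the tenth with the largest. Ribosomal protein genes had 87.5% (n = 24) and unfolded protein response genes 94.4% (n = 18). Present epithelium genes had 34.4% (n = 32), under the 74.7% of present genes and the 77.7% of the brightest 10% of them. The share over all promoters is not a like comparison, because it also counts genes without a probe set here. The same check over absent genes is void because only 76.4% of them have a promoter in the table. Examples are the 120 bases before the start, with each CG in capitals, of Kcnj13, Ecrg4 and Igfbp2 from the epithelium list, which have 1, 4 and 7 of them, and of Rpl38 and Rpl13a, ribosomal protein genes, which have 7 and 13. Igfbp2 and Rpl38 have the same number, so single genes of the 2 lists overlap.
Kcnj13 (chr1:87394730-87394849, - strand): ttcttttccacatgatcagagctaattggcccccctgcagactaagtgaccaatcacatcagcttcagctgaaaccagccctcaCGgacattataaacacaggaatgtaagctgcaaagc
Ecrg4 (chr1:43730482-43730601, + strand): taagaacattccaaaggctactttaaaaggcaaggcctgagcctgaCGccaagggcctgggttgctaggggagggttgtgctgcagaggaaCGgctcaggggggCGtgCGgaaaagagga
Igfbp2 (chr1:72824360-72824479, + strand): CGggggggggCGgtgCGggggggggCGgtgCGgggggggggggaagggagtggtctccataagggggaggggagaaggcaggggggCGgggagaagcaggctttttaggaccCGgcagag
Rpl38 (chr11:114668460-114668579, + strand): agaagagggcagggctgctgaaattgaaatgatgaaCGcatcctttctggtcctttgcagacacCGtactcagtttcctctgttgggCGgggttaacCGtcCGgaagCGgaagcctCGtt
Rpl13a (chr7:45128746-45128865, - strand): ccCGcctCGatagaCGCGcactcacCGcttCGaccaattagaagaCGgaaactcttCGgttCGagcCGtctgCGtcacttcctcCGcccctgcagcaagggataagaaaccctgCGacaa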

How the data were processed

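RNA of 5 wild-type samples was measured on 1 array each. The deposited intensities and detection calls were made with GCOS 1.4, per the submitters' processing notes. Settings for background, summary and detection: not given in the sources used here. Each array's deposited intensities were already scaled, since the mean after trimming 2% at each end was 499.5 to 500.0 on all 5 arrays. Of the 27 columns of per-sample values, 17 were not used. These are the columns of the other group and the detection p columns.

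Ranks and levels were computed on log2 of the deposited intensity, and spread after quantile normalization over the 5 arrays (limma 3.58.1 in R 4.3.3). The normalization and SD step was tested on simulated data. There was 1 group and so no test between groups, and single arrays were screened with Dixon's test. Precision is limited by the number of arrays. Platform annotation gave 1 symbol to 34945 probe sets, several to 932 and none to 9160, and 34754 matched RefSeq genes (GRCm38.p6) by gene ID. Gene names come from probe sets with 1 symbol.

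The 41 gene lists (903 entries) and the members described were chosen with earlier results of these data known. Named genes were the markers, the 40 brightest, the 25 of largest and 12 of smallest SD above the median brightness, the 12 brightest absent genes, and from each list all members up to 12 or otherwise the 6 brightest present and 6 brightest absent. Further members were named after their values were seen. Alternatives were other call rules, no quantile normalization, 16 added to the signal, other gene and list rules, and each array left out.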

Additional observations from a re-analysis of the deposited data

Results flagged for a closer look

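Among 79 probe sets of the markers, the brightest genes and those of largest and smallest SD, 8 had 1 array far from the other 4 by Dixon's test on quantile-normalized log2 signal, and 1 of 33 list means did. Chance flags about 1 in 20 unselected groups. This rate does not apply to the 25 probe sets chosen for a large SD or the 12 chosen for a small SD. The 5 on which replicate 1 stood apart are among the 25. The flags of Ttr, Uqcrb, Atp5g3 and the list mean are among items not chosen by SD, where chance alone gives some. Replicate 1 was the array apart in 5 of the 8 probe sets. It was high for the most variable probe set of Mbp (11.90, with the others at 8.71 to 9.54), Prmt1 (10.98, others 9.09 to 9.61) and Pisd-ps3 (11.25, with a deposited signal of 2418.3 against 763.0 to 1015.5 on the others). It was low for Ifi27l2a (10.03, others 11.30 to 11.78) and Tbc1d1 (9.09, others 10.41 to 10.75). Replicate 3 was low for the mitochondrial genes Uqcrb (14.34, others 14.56 to 14.62) and Atp5g3 (14.32, others at 14.43). Replicate 2 was high for Ttr (14.86, others 14.66 to 14.70). The mean of the secreted and carrier protein list was high on replicate 5 at 0.11, with the others at -0.04 to -0.02.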

How the results depend on the processing

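No paired analysis was possible because only 1 group was described, so no groups could be compared. The counts of probe sets P or A on all 5 arrays stayed within 1.5 times under the 7 alternatives run on each. The median SD of 0.20 became 0.35 over all probe sets other than controls, which adds the dim ones. Of the counts of present list members, 287 stayed within 1.5 times and 7 did not. With P on at least 4 arrays as the rule, liver had 3 present genes, photoreceptor and lens 2, and pituitary and hypothalamus 1. With 1 array left out, liver ranged from 1 to 2 (2 without replicate 1 or without replicate 2), photoreceptor and lens from 1 to 2 (2 without replicate 2), and pituitary and hypothalamus from 0 to 1 (1 without replicate 2). Without quantile normalization the epithelium list mean was 0.07, 0.11 and -0.09 on replicates 1, 3 and 5, and that of oxidative phosphorylation was 0.11, 0.02, 0.10, -0.07 and -0.16 on replicates 1 to 5, so the small ranges given for these lists hold after normalization only. The cause was not tested. The other 72 list means computed under an alternative moved by less than the spread. For 42 named genes the percentile of brightness moved in 37 of the values and stayed in 299, and the lowest under any alternative was 98.8, for Calml4. Of the SDs of single genes, 159 stayed and 16 moved by over 1.5 times. All 16 were of large-SD probe sets with 1 array left out: without replicate 1, Mbp became 0.36, Ifit1 0.50, Ankrd24 0.39, Prmt1 0.24, Rab2a 0.47, Usp18 0.38, Ifi27l2a 0.20, Ptn 0.42, Tbc1d1 0.16, 1810014B01Rik 0.39, Pisd-ps3 0.19 and Creld2 0.43, and without replicate 3, Psmb7 became 0.49, Kansl1l 0.42, Sparc 0.27 and Atp6v0b 0.33. In each, the array left out was the one farthest from the median, so the lower SD is no finding. The SD was larger for dim probe sets.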
